A study of Drosophila melanogaster with 84 samples.

Results

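The subjective day and the subjective night of constant darkness (DD) were compared in EGFP-positive neurons sorted from adult *Drosophila melanogaster* brains. All 48 DD libraries were used, and a well entered when it held 1000 to 6000 genes, 6000 to 75000 UMIs (unique molecular identifiers, each standing for one captured mRNA molecule) and an entropy of its gene counts (natural log) no lower than 5.5. These limits kept 2311 of 4607 DD wells, against 4595 kept wells in all 84 libraries of the series. The subjective day was made of CT02, CT06 and CT10 (circadian time in hours), with 1096 wells in 8 batches. The subjective night was made of CT14, CT18 and CT22, with 1215 wells in 6 batches. All flies carried *Clk856-GAL4* and expressed EGFP under its control, males and females were used in equal numbers, and the DD flies spent 3 days in constant darkness after entrainment to 12 h of light and 12 h of dark. The driver marks most groups of clock neurons but only a fraction of the DN3 neurons, and also some neurons outside the clock network. The counts of all kept wells of a batch were summed without a split by cell type, so every value is an average over this mixture, in which fewer cells of a type and less RNA per cell cannot be told apart.

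A batch is the set of libraries with the same time point and the same date number in the labels. The labels do not state that batches came from separate flies, so p-values measure the spread between batches, which may be technical. The batches held 221107 to 4784444 UMIs. One batch, CT06-2, stood apart with 6 kept wells, whereas the others had at least 84 wells. The neuronal markers *elav*, *nSyb*, *Syt1* and *brp* together reached 52.1 to 64.1 TP10K (UMIs per 10000 UMIs of the batch) in the 8 day batches and 52.9 to 64.8 TP10K in the 6 night batches. Markers of photoreceptors stayed at 0.0953 to 0.633 TP10K in subjective day and 0.105 to 0.349 TP10K in subjective night. Glial markers are taken up below, since their level was not the same in the groups.

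The circadian clock of flies is a transcriptional feedback loop. CLOCK and CYCLE activate *per* and *tim*, whose protein products enter the nucleus and shut off their own activators. A second loop runs through *vri* and *Pdp1*, which repress and activate *Clk*, and *cwo* encodes a further repressor of CLOCK targets. *cry* encodes the blue-light photoreceptor that triggers the loss of TIM. The loop keeps running in constant darkness, where a rhythm cannot be a direct response to light.

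Very few genes passed the test of subjective day against subjective night. The quasi-likelihood test of edgeR, applied to the mean of the 3 day time points minus the mean of the 3 night time points with Benjamini-Hochberg adjustment over 7516 genes, called 2 genes, *CG14417* and *CoRest*. Both were higher in subjective day, which is 0.0266% of the genes tested, and 0 genes (0%) were called higher in subjective night. At an unadjusted p under 0.05, the same test had 697 genes higher in day (9.27%) and 123 higher in night (1.64%). The median log2 difference of all genes was -0.01. Batches of one time point differed with a biological coefficient of variation of 0.475, and the median standard error of a log2 difference was 0.37. With DESeq2 the count was 212 genes, 202 of them higher in day. Taking the spread over all batches of a phase, in place of the spread within time points, left 0 calls in edgeR, with 865 genes at an unadjusted p under 0.05. The date number as a block also left 0 calls, with 454 genes at that limit.

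None of the 8 core clock genes was called, although the batches of several of them differed widely between time points. At an unadjusted p under 0.05, *Pdp1* alone was in the group of genes higher in night. Their log2 differences, day minus night, ran between -0.56 and 0.52 with a median of -0.17, against -0.01 over all genes. A mean over 3 time points hides a rhythm whose peak or trough lies on the border of the phases, and the values by batch show this for several of them.

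*Clk* (chr3L:7763233-7775603, minus strand, dm6) encodes the activator CLOCK. It had 1.43 and 1.33 TP10K at CT02, 1.47, 1.22 and 1.11 TP10K at CT06, 0.33, 0.26 and 0.35 TP10K at CT10, 0.36 and 0.23 TP10K at CT14, 1.31 and 1.01 TP10K at CT18, and 1.63 and 2.32 TP10K at CT22. The 5 batches of CT10 and CT14 were below all the others, and they belong to different phases. Over the phases, *Clk* therefore averaged 0.94 ± 0.53 TP10K in subjective day and 1.14 ± 0.79 TP10K in subjective night (SD, n = 8 and 6), with a log2 difference of -0.05 ± 0.20 (SE, edgeR adjusted p = 0.967). The sign of this small difference was positive when 1000 genes was the only limit on wells, with 0.22, and without CT14-1, with 0.06.

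*cyc* (chr3L:19813770-19815938, minus strand) encodes CYCLE, the partner of CLOCK. Its level was 0.68 and 0.43 TP10K at CT14 and at most 0.33 TP10K in the other batches. The day batches ranged from 0.05 to 0.33 TP10K and the night batches from 0.18 to 0.68 TP10K, so the groups overlapped. The log2 difference was -0.55 ± 0.34 (edgeR adjusted p = 0.621).

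The genes of the repressors, *per* and *tim*, had day-night differences of opposite sign. *tim* (chr2L:3493986-3508119, minus strand) had 5.58 and 0.90 TP10K at CT02, 6.01, 7.69 and 3.92 TP10K at CT06, 14.4, 13.3 and 4.10 TP10K at CT10, 23.4 and 12.2 TP10K at CT14, 7.95 and 8.20 TP10K at CT18, and 5.72 and 4.30 TP10K at CT22. Its highest batches were thus on either side of subjective dusk, and the 2 highest day batches exceeded all night batches but CT14-1. The mean was 6.99 ± 4.68 TP10K in subjective day and 10.3 ± 6.95 TP10K in subjective night, a log2 difference of -0.56 ± 0.38 (edgeR adjusted p = 0.666). *per* (chrX:2685580-2692780, plus strand) had 1.002 and 0.51 TP10K at CT02, 0.60, 1.18 and 0.86 TP10K at CT06, and 1.65, 1.16 and 0.86 TP10K at CT10. In subjective night it had 0.78 and 0.77 TP10K at CT14, 0.59 and 0.55 TP10K at CT18, and 0.57 and 0.79 TP10K at CT22. Of the 8 clock genes it had the most positive day-night difference, with a log2 value of 0.52 ± 0.26 (edgeR p = 0.0642, adjusted p = 0.507). *per* is the X-linked one of the 8, and the X-linked genes as a group are described below.

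*vri* and *Pdp1* had their lowest batch at CT02. *vri* (chr2L:5288944-5311223, plus strand), which encodes the repressor of *Clk*, had 1.97 and 0.27 TP10K at CT02, 2.27, 3.48 and 1.51 TP10K at CT06, and 3.91, 2.62 and 3.20 TP10K at CT10. In subjective night it had 4.57 and 3.13 TP10K at CT14, 3.18 TP10K in both batches of CT18, and 1.78 and 1.06 TP10K at CT22. Early day and late night were both low, and the log2 difference was -0.28 ± 0.36 (edgeR adjusted p = 0.858). *Pdp1* (chr3L:7811458-7867369, minus strand) had by far the highest level of the 8 genes. It averaged 38.6 ± 11.7 TP10K in subjective day, with a range of 20.6 to 60.3 TP10K, and 54.5 ± 12.7 TP10K in subjective night, with a range of 40.6 to 77.8 TP10K. The groups overlapped, and the log2 difference of -0.49 ± 0.21 did not pass (edgeR p = 0.0397, adjusted p = 0.425).

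*cwo* and *cry* had nearly the same mean in both phases. *cwo* (chr3R:10388258-10400752, plus strand) had 1.84 ± 0.36 TP10K in subjective day and 1.98 ± 0.36 TP10K in subjective night, and it varied little between time points. *cry* (chr3R:19212154-19215442, plus strand) had 1.97 and 2.60 TP10K at CT02, 2.56, 0.90 and 1.09 TP10K at CT06, and 0.64, 0.56 and 0.86 TP10K at CT10. In subjective night it had 0.63 and 0.86 TP10K at CT14, 1.73 and 0.85 TP10K at CT18, and 1.52 and 2.07 TP10K at CT22. Like *Clk*, *cry* was low around dusk and high around dawn, so its phase means were close, with a log2 difference of 0.20 ± 0.28 (edgeR adjusted p = 0.872).

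**Figure D1:**
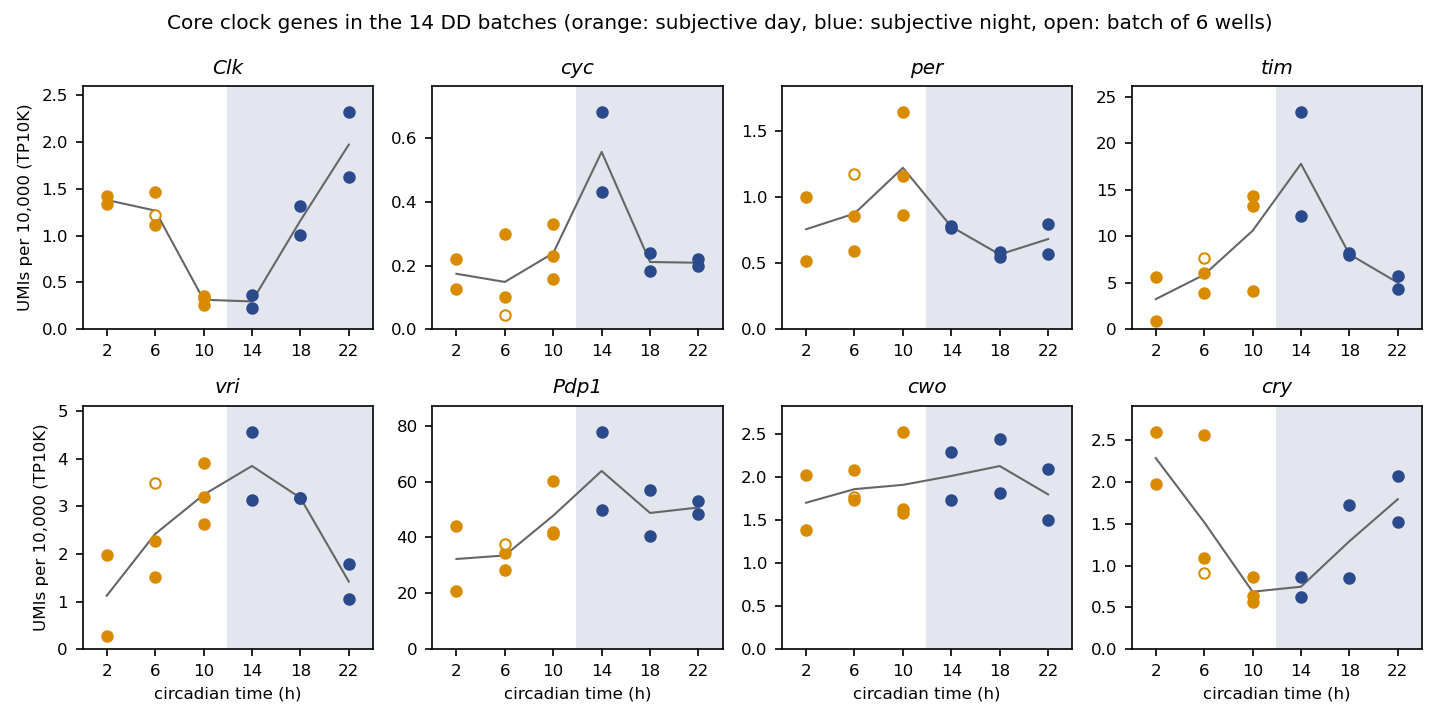
TP10K of the 8 core clock genes (y axis, linear, from 0) against circadian time in hours (x axis), 1 point per DD batch, orange for subjective day and blue for subjective night on a shaded ground, open for the batch of 6 wells; the line joins the means of the time points. *Clk* and *cry* had their troughs, and *tim* its peak, near the border at 12 h, so that day and night each held high and low batches.

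Some batches of opposite phase carry the same date number, which gives 3 pairs taken 12 h apart. Within them, *tim* had 0.90 TP10K in CT02-2 against 12.2 TP10K in CT14-2, 6.01 TP10K in CT06-1 against 8.20 TP10K in CT18-2, and 4.10 TP10K in CT10-3 against 4.30 TP10K in CT22-2. It was lower in day in each pair, by widely different amounts. *Clk* had 1.33 TP10K in CT02-2 against 0.23 TP10K in CT14-2, 1.47 TP10K in CT06-1 against 1.01 TP10K in CT18-2, and 0.35 TP10K in CT10-3 against 2.32 TP10K in CT22-2. The sign was thus opposite in the last pair, and *cry* and *vri* also changed sign between pairs.

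A test of a 24 h rhythm asks the same batches for a peak at any hour. With a cosine and a sine in the edgeR model, 2 of 7516 genes (0.0266%) were called, *Clk* and *CG43902*, and 339 (4.51%) had an unadjusted p under 0.05. Of the 8 core clock genes, 6 had an unadjusted p under 0.05, among them *Clk*. The fitted peak of *Clk* lay at 0.14 h, with a log2 difference from trough to peak of 2.87 (adjusted p = 0.0456). *cry* peaked at 0.57 h with 1.77 (p = 0.000887), *tim* at 13.4 h with 2.16 (p = 0.0033), *vri* at 12.9 h with 1.73 (p = 0.0139), *cyc* with 1.40 (p = 0.0389) and *Pdp1* at 15.5 h with 0.90 (p = 0.0348), and none of these 5 passed the adjustment. The rhythm calls were fragile. Leaving out a batch gave 0 calls in 13 of 14 cases, and both genes were called again without CT18-1. With the date number as a block there were 0 calls, with 539 genes at an unadjusted p under 0.05, while DESeq2 called 25 genes, both of these included.

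*CG43902* (chrX:10158434-10195337, plus strand), a protein-coding gene with no name beyond its identifier, was the one gene among the 15 most day-biased that also had a rhythm call. It had 7.48 and 6.39 TP10K at CT02, 8.29, 10.5 and 6.23 TP10K at CT06, 3.79, 2.33 and 4.25 TP10K at CT10, 1.87 and 1.54 TP10K at CT14, 3.21 and 1.98 TP10K at CT18, and 5.61 and 5.62 TP10K at CT22. The 5 batches of CT02 and CT06 were above all the rest, and CT10 fell among the night batches. The fitted peak was at 3.10 h with a log2 difference from trough to peak of 2.26 (edgeR adjusted p = 0.0456). In the day-night contrast its log2 difference of 1.04 ± 0.21 did not pass (edgeR p = 0.00025, adjusted p = 0.191). It was higher in day within the first 2 of the 3 pairs above, with 6.39 TP10K against 1.54 TP10K and 8.29 TP10K against 1.98 TP10K, and lower in CT10-3, with 4.25 TP10K against 5.62 TP10K in CT22-2.

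*CG14417* (chrX:2875428-2876533, minus strand), a protein-coding gene of no named function, had the smallest p of the day-night contrast. It had 1.01 and 0.93 TP10K at CT02, 0.11, 0.23 and 0.05 TP10K at CT06, and 0.77, 1.11 and 1.14 TP10K at CT10. In subjective night it had 0.08 and 0.06 TP10K at CT14, 0.03 and 0.04 TP10K at CT18, and 0.09 and 0.21 TP10K at CT22. The 5 batches of CT02 and CT10 were high, and the 3 of CT06 were at the level of the night, with 5 to 33 UMIs each. The log2 difference was 2.80 ± 0.35 (edgeR adjusted p = 0.0131). The call was lost without CT06-1 (adjusted p = 0.0605), CT14-2 (0.175), CT18-1 (0.255), CT18-2 (0.139), CT22-1 (0.152) or CT22-2 (0.0532), and DESeq2 gave an adjusted p of 6.44e-12. With the date number as a block the log2 difference was 2.61 and did not pass (edgeR adjusted p = 0.749). Within the 3 pairs of one date number, *CG14417* had 0.93 TP10K in CT02-2 against 0.06 TP10K in CT14-2, 0.11 TP10K in CT06-1 against 0.04 TP10K in CT18-2, and 1.14 TP10K in CT10-3 against 0.21 TP10K in CT22-2. It was thus higher in day in each. The pairs are among the batches by which the gene was picked, so this shared sign is no separate evidence for the call.

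*CoRest* (chrX:19521929-19530896, plus strand), which encodes a corepressor that works with a histone demethylase, had the same outline. It had 3.06 and 1.29 TP10K at CT02, 0.37, 0.32 and 0.32 TP10K at CT06, and 3.97, 3.04 and 2.35 TP10K at CT10. In subjective night it had 0.78 and 0.35 TP10K at CT14, 0.23 and 0.28 TP10K at CT18, and 0.39 and 0.47 TP10K at CT22. CT06 again lay within the range of the night batches. The log2 difference was 1.80 ± 0.27 (edgeR adjusted p = 0.0494), and the call was kept without CT02-2, CT10-3 or CT14-1 and lost without any of the other 11 batches, with adjusted p of 0.0867 to 0.523. With the date number as a block the log2 difference was 1.60 and did not pass (edgeR adjusted p = 0.765). Within the pairs of one date number, *CoRest* had 1.29 TP10K in CT02-2 against 0.35 TP10K in CT14-2, 0.37 TP10K in CT06-1 against 0.28 TP10K in CT18-2, and 2.35 TP10K in CT10-3 against 0.47 TP10K in CT22-2, with day again the higher. Here too the pairs are not independent of the choice of the gene. Neither *CG14417* nor *CoRest* separated day from night in all batches, which 3 genes did with day above night (0.0399% of those tested), namely *CG5071*, *ben* and *CG13907*. The opposite separation was found in 16 genes (0.213%).

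The other 13 genes with the smallest p among the day-higher ones did not pass the adjustment (edgeR adjusted p of 0.191 to 0.217). They were *CG5071*, *sog*, *IntS4*, *CR45537*, *Ag5r*, *CG9030*, *CG43902*, *CG2652*, *knrl*, *CG42594*, *CG32591*, *Proc-R* and *CG14411*. *CG5071* was the most even of them. It had 0.51 to 1.46 TP10K in the 8 day batches and 0.22 to 0.44 TP10K in the 6 night batches. Its log2 difference was 1.51 ± 0.28 (edgeR p = 0.000106, adjusted p = 0.191). *IntS4*, a subunit of the Integrator complex, had 0.07 to 0.66 TP10K in subjective day and 0.04 to 0.11 TP10K in subjective night.

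Most of the remaining day-higher genes were high in 3 particular batches. *sog*, which encodes a secreted antagonist of BMP signalling, had 0.71 TP10K in CT02-1, 2.73 TP10K in CT10-1 and 2.62 TP10K in CT10-2. In the other 5 day batches *sog* had 0.05 to 0.37 TP10K, and in the 6 night batches 0.01 to 0.08 TP10K. *Proc-R*, the receptor of the neuropeptide proctolin, had 0.33, 1.203 and 0.59 TP10K in the same 3 batches, against 0.02 to 0.27 TP10K in the other day batches and 0.005 to 0.13 TP10K in subjective night. *CG32591*, *CR45537*, *CG9030* and *CG2652* were likewise highest in these 3 batches. RNA of EGFP, the marker used for sorting, was lowest in the 3 batches. It was at 11.9, 10.3 and 7.29 TP10K, against 22.5 to 55.5 TP10K in the other DD batches. The part of this difference in the day-higher genes was not tested. The 3 batches also had the highest median number of genes per well, with 3145, 3703 and 3634.5 genes, against 1537.5 to 2868 genes in the others. With the logarithm of that number as a covariate, an alternative chosen after the values had been seen, edgeR called 3 genes, *CG14417*, *CoRest* and *scrib*, all higher in day.

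**Figure D2:**
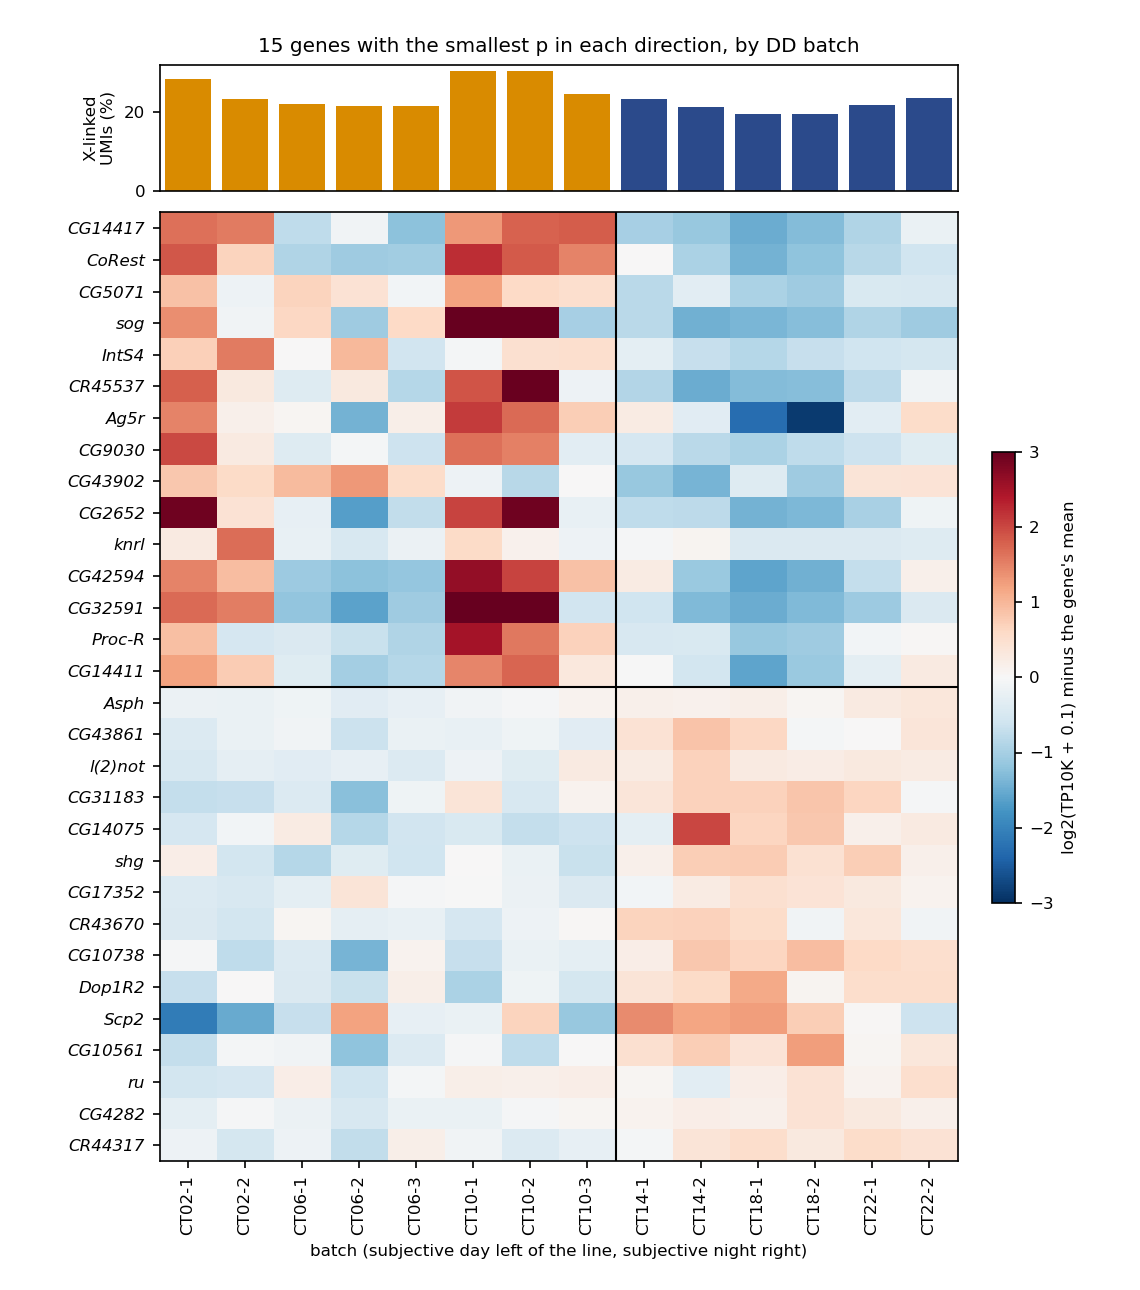
The 15 genes with the smallest p in each direction (rows, *CG14417* at the top) in the 14 DD batches (columns, subjective day left of the line), coloured by log2(TP10K + 0.1) minus the mean of the gene; bars above give the percent of protein-coding UMIs from X-linked genes. The day-higher genes were high mainly in CT02-1, CT10-1 and CT10-2, and the batches of CT06 resembled the night for many of them.

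The day-higher genes shared a position that the contrast did not use. Of the 15 with the smallest p, 13 are on the X chromosome, all but *CG5071* and *knrl*, and of the 15 night-higher genes 0 are. Over the whole table, X holds 19.5% of the genes tested. It holds 336 (48.2%) of the 697 genes that were higher in day at an unadjusted p under 0.05, and 8 of the 123 that were higher in night. Put the other way, 22.9% of X-linked genes were day-higher at this limit, against 5.87% of genes on the autosomes as a whole and 15.7% of the 83 on the small chromosome 4. The median log2 difference was 0.28 for the 1469 X-linked genes tested and between -0.07 and 0.01 for each of the other arms. This grouping was made after the genes had been seen, and it is given without a test. The X median stayed positive in all alternatives of the contrast that were run, none of which left out CT02-1, CT10-1 and CT10-2 together. It was lowest with wells weighted the same (0.12, against -0.11 for autosomes) and was 0.13 with the date number as a block, 0.14 with genes per well as a covariate and 0.15 without CT02-1, against 0.23 without CT06-2. The share of X-linked genes that were day-higher at an unadjusted p under 0.05 moved more. It was 5.65% with the block, against 2.84% of autosomal genes, 9.39% with the covariate, against 2.33%, and 9.32% without CT02-1, against 2.12%. The block draws the contrast from the date numbers with both phases, and CT02-1, CT10-1 and CT10-2 carry none of these.

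The level of X-linked RNA differed between batches rather than between all day and all night batches. The share of protein-coding UMIs from X-linked genes was 28.1% and 23.1% at CT02, 21.9%, 21.5% and 21.3% at CT06, and 30.2%, 30.3% and 24.5% at CT10. In subjective night it was 23.1% and 21.1% at CT14, 19.5% and 19.3% at CT18, and 21.7% and 23.5% at CT22. CT02-1, CT10-1 and CT10-2 were thus above 28%, and the remaining 5 day batches, with 21.3% to 24.5%, lay close to the night. These shares include the genes picked by the contrast in the same batches. Without the genes at an unadjusted p under 0.05, the share was 23.2%, 25.1% and 25.4% in the 3 batches. It was then 19.5% to 22.1% in the other day batches and 17.9% to 21.2% in subjective night, a smaller gap. *roX1* and *roX2*, male-specific RNAs of the dosage compensation complex that raises X-linked transcription in males, did not follow this pattern. Together they had 21.2, 19.3 and 20.3 TP10K in the 3 batches with the highest X-linked share, against 17.8 to 40.1 TP10K in the other day batches and 16.6 to 38.5 TP10K in subjective night. The part of the mixture of sexes, of the number of genes per well or of a date in the X-linked level was not tested. The 3 highest batches share no date number with a night batch.

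**Figure D3:**
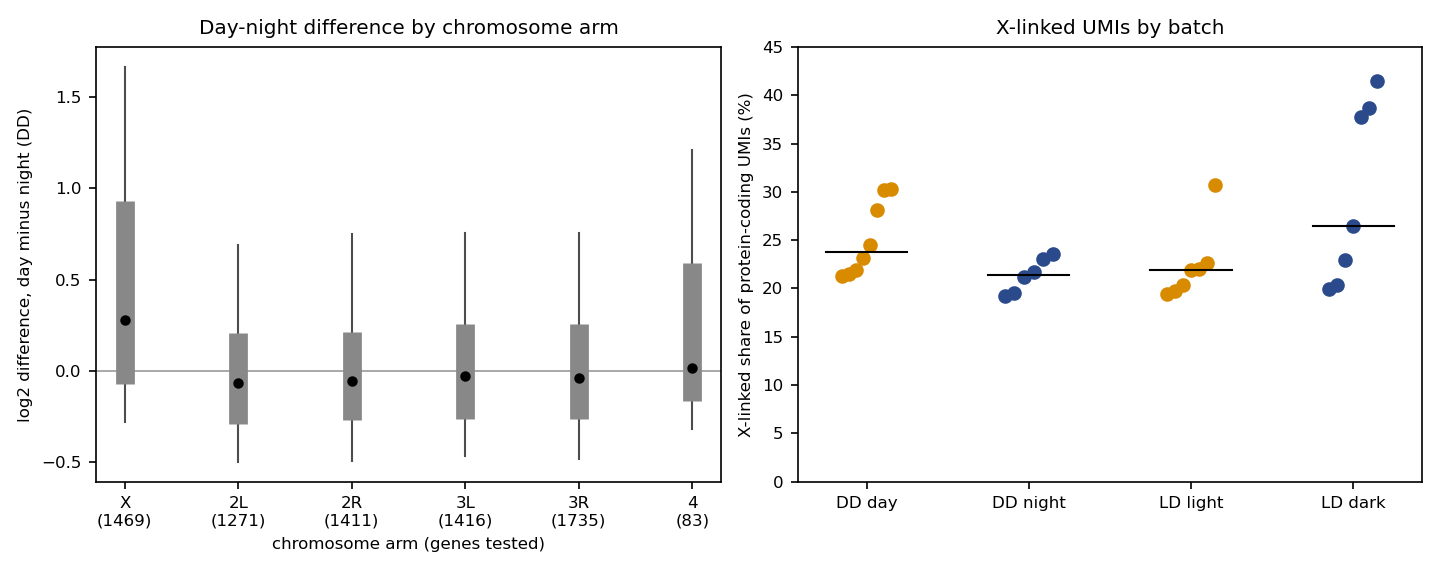
Left, log2 difference, subjective day minus subjective night, for the genes of each chromosome arm (dot, median; thick bar, quartiles; thin line, 10% to 90% of genes; number of genes in parentheses). Right, percent of protein-coding UMIs from X-linked genes, 1 point per batch with the median as a line, in DD and in LD. X stood above the other arms in the DD contrast, and single batches of DD day, LD light and LD dark had X-linked shares of 28.1% or more.

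The genes with the smallest p on the side of the night were mostly weakly expressed. None of the 15 with the smallest p passed (edgeR adjusted p of 0.217 to 0.261). They were *Asph*, *CG43861*, *l(2)not*, *CG31183*, *CG14075*, *shg*, *CG17352*, *CR43670*, *CG10738*, *Dop1R2*, *Scp2*, *CG10561*, *ru*, *CG4282* and *CR44317*. *Asph*, an aspartyl hydroxylase, had the smallest p, on 137 UMIs in all DD batches together. *CG43861*, *CG10738*, *CG10561* and *CG4282* were higher in every night batch than in every day batch, as were 12 further genes of the table.

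Among them were genes of known roles in signalling. *Dop1R2*, a dopamine receptor, had 0.24 to 0.64 TP10K in the 8 day batches and 0.60 to 1.34 TP10K in the 6 night batches. Its highest day batch was CT06-3 and its lowest night batch CT18-2, and the log2 difference was -1.03 ± 0.30 (edgeR p = 0.00393, adjusted p = 0.248). *Scp2*, which encodes a calcium-binding protein, had 0.41 to 4.97 TP10K in subjective day and 1.34 to 5.80 TP10K in subjective night. The highest day value was from CT06-2, the batch of 6 wells. *CG31183*, a receptor-type guanylyl cyclase, had 0.05 to 0.35 TP10K in subjective day and 0.24 to 0.52 TP10K in subjective night (log2 difference -1.25 ± 0.32, edgeR p = 0.00166, adjusted p = 0.217). *shg*, the gene of E-cadherin, had at most 0.11 TP10K in subjective day and 0.11 to 0.22 TP10K in subjective night. *l(2)not*, the mannosyltransferase Alg3 of N-glycosylation, had 0.02 to 0.11 TP10K in subjective day and 0.10 to 0.18 TP10K in subjective night.

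Lists of genes with known roles were read by their counts and medians. None of their 417 distinct genes tested was called in either direction, and 24 were day-higher and 14 night-higher at an unadjusted p under 0.05, where all genes had 9.27% and 1.64%. X-linked genes were 11 of the 24 and 1 of the 14. Over all genes, X held 48.2% of the day-higher ones and 8 of the 123 night-higher ones, so the lists did not stand apart in the day-higher share. Among 22 neuropeptide genes the median log2 difference was 0.27, and 0.03 with wells weighted the same, with *AstA*, *AstCC*, *CCAP* and *amn* day-higher and *CCHa1* night-higher at this limit. *AstA*, the gene of allatostatin A, had 7.43 and 11.8 TP10K at CT02, 3.55, 4.98 and 5.38 TP10K at CT06, 1.01, 2.34 and 1.34 TP10K at CT10, and 0.95 to 4.60 TP10K in subjective night. It was thus high in the early day and not at CT10, and its log2 difference was 0.81 ± 0.29 (edgeR p = 0.0142, adjusted p = 0.322).

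Peptide receptors had differences in both directions, without a call. Of 25 tested, *AstC-R1*, *Proc-R* and *NPFR* were day-higher and *CCHa2-R*, *SIFaR* and *Dh31-R* night-higher at an unadjusted p under 0.05. Of all genes tested, 9.27% were day-higher and 1.64% night-higher at this limit. The median log2 difference of the receptors was -0.02. *AstC-R1*, a receptor of allatostatin C, showed how far the 3 batches weighed. It had 1.71, 1.91 and 1.65 TP10K in CT02-1, CT10-1 and CT10-2, against 0.03 to 0.10 TP10K in the other 5 day batches and 0.02 to 0.14 TP10K in subjective night. *Hr4*, an X-linked nuclear receptor, had 24.3, 23.2 and 28.5 TP10K in those batches, against 0.62 to 7.598 TP10K in the other day batches and 0.46 to 7.07 TP10K in subjective night. *rut*, an X-linked gene for the calcium-dependent adenylyl cyclase, had 18.7, 19.6 and 20.3 TP10K there, against 1.85 to 8.16 TP10K in the other day batches and 1.56 to 7.55 TP10K in subjective night.

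Some other list genes had no such peak in these 3 batches. *dpr13*, of the DIP and dpr family of adhesion proteins, had 2.08 to 7.15 TP10K in the 8 day batches and 1.73 to 2.84 TP10K in the 6 night batches with CT06-2 as the highest (log2 difference 0.78 ± 0.23, edgeR p = 0.00498, adjusted p = 0.25). *Tbh*, the gene of the enzyme that makes octopamine, averaged 11.6 ± 7.23 TP10K in subjective day and 24.3 ± 7.99 TP10K in subjective night (log2 difference -1.03 ± 0.39, edgeR p = 0.0208, adjusted p = 0.354). It was X-linked and still lower in day. *Rh7*, which encodes a rhodopsin of clock neurons, was night-higher, with a mean of 0.55 TP10K in subjective day and 0.87 TP10K in subjective night (edgeR p = 0.0151, adjusted p = 0.327). *Hr38*, an activity-regulated nuclear receptor, differed from these 3 genes and was again highest in CT02-1, CT10-1 and CT10-2. It was the day-higher one of 9 activity-regulated genes, with a mean of 0.37 TP10K in subjective day and 0.17 TP10K in subjective night (edgeR p = 0.0238, adjusted p = 0.359).

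Housekeeping lists lay slightly on the side of the night without a call. Of all 7516 genes tested, 3806 had a negative log2 difference. All 12 genes of glycolysis and of the phosphagen system that were tested had a negative log2 difference, with a median of -0.18, and 11 of them with DESeq2 scaling. *Argk*, the arginine kinase, had 9.37 ± 4.61 TP10K in subjective day and 10.8 ± 3.22 TP10K in subjective night, a difference smaller than its spread. Of 79 genes for cytoplasmic ribosomal proteins, 67 were negative, with a median of -0.18. 2 of the 79, *RpL23A* and *RpL26*, were night-higher at an unadjusted p under 0.05, against 1.64% of all genes. The ribosomal count was 71 without TMM and 65 with DESeq2, and without CT18-2 it was 49, with a median of -0.05. Without CT18-2, 8 of the 12 glycolysis genes were negative, and with genes per well as a covariate 7 were. The 12 clock kinases, phosphatases and degradation factors had 0 genes at an unadjusted p under 0.05 in either direction in edgeR, with log2 differences of -0.25 to 0.30. Of all genes, 9.27% were day-higher and 1.64% night-higher at this limit.

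**Figure D4:**
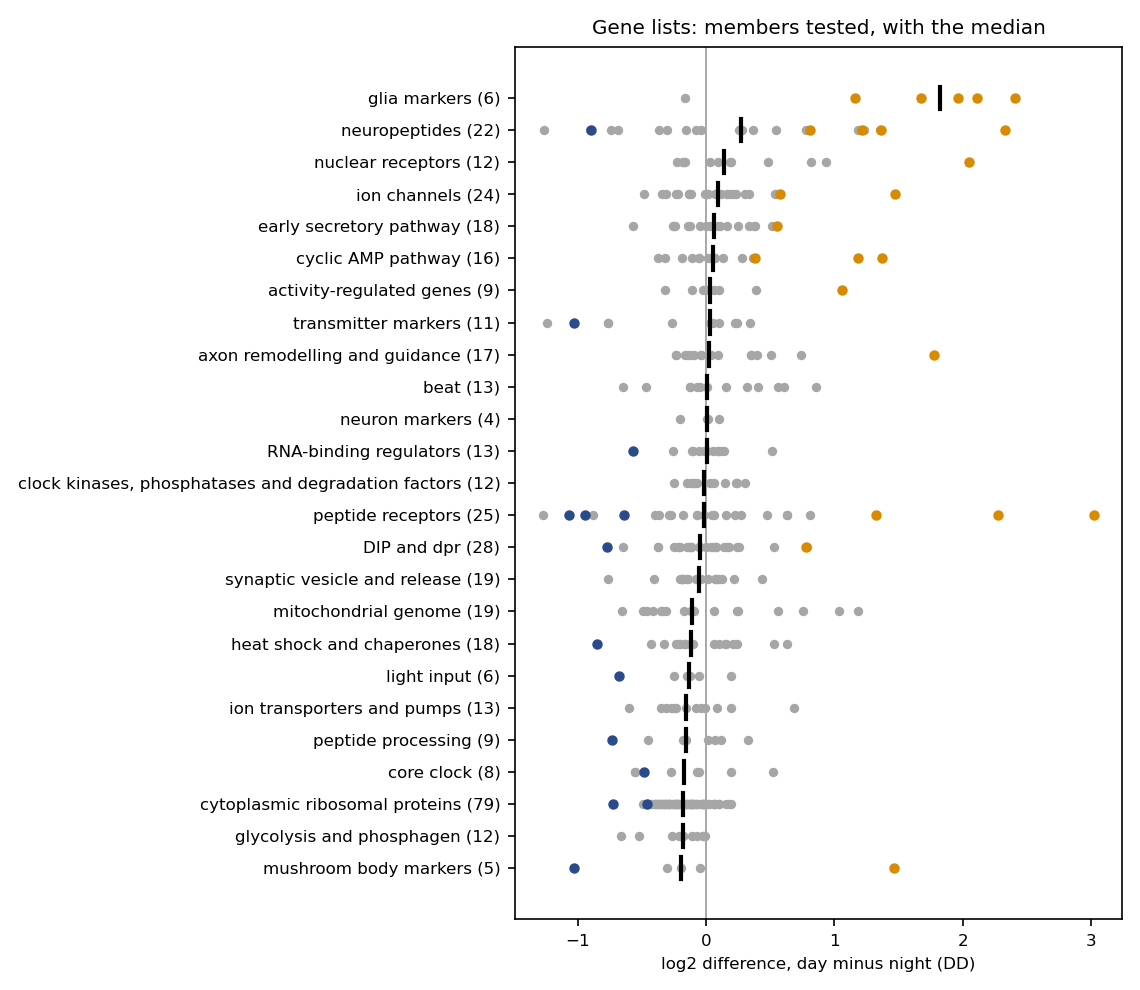
Log2 difference, subjective day minus subjective night (x axis), of the tested members of each gene list with at least 4 of them (rows; number tested in parentheses); black bars are medians, orange points are day-higher and blue points night-higher at an unadjusted p under 0.05, and grey points are the rest. Most medians lay near 0, that of the glial markers lay at 1.82, and no point passed the adjusted threshold.

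Markers of glia, the non-neuronal cells of the brain, lay on the side of the day. Of 6 glial markers tested, 5 were day-higher at an unadjusted p under 0.05, against 9.27% of all genes tested. They were *moody* and *Gs2*, both X-linked, *Gat* on chromosome 4, and *Indy* and *Mdr65* on 3L. The remaining marker had a log2 difference of -0.17. The median log2 difference was 1.82. It was 1.14 without CT02-1 and 0.75 with wells weighted the same. The summed level of the 8 measured markers was 0.529 to 4.72 TP10K in subjective day and 0.278 to 1.03 TP10K in subjective night. The 3 highest batches were CT10-2 with 4.72 TP10K, CT10-1 with 3.62 TP10K and CT02-1 with 2.27 TP10K, the same 3 in which X-linked genes were high. *repo*, which defines glia, had at most 0.0511 TP10K in any batch. Muscle markers summed to 0.0754 to 0.509 TP10K in subjective day and 0.0451 to 0.203 TP10K in subjective night, with *up* day-higher at this limit. The part of glial RNA in the day-higher genes was not tested.

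The make-up of the sorted wells was compared between the phases with exact two-sided permutation tests over batches, with adjustment over 9 measures. The median number of genes per well averaged 2758 ± 704 in subjective day and 2194 ± 375 in subjective night (exact permutation p = 0.105, adjusted p = 0.25). Wells with at least 100 TP10K of *Pdf*, the peptide of the ventral lateral neurons, were 6.32 ± 2.89% in subjective day and 8.86 ± 2.14% in subjective night (exact permutation p = 0.0773, adjusted p = 0.25). For *CCHa1*, at 10 TP10K or more, the shares were 2.81 ± 1.37% in subjective day and 4.28 ± 1.68% in subjective night (exact permutation p = 0.0986, adjusted p = 0.25). No measure passed, and the adjusted p of the other 6 measures ran from 0.25 to 0.712. Without CT06-2, where no well reached these levels of *Pdf* or *CCHa1*, *Pdf* wells were 7.22 ± 1.45% in subjective day and 8.86 ± 2.14% in subjective night (exact permutation p = 0.135).

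The same contrast in light-dark cycles (LD) was set beside that of DD in a joint edgeR fit of 28 batches. The LD flies were of the same genotype, and their light phase (ZT02, ZT06 and ZT10) and dark phase (ZT14, ZT18 and ZT22) held 7 batches each. LD and DD batches share no date number, so light regime and batch cannot be told apart. Of 8683 genes, 0 (0%) were called for a difference between the DD and the LD contrast, with 0.0648 as the smallest adjusted p, and 1698 (19.6%) had an unadjusted p under 0.05, while DESeq2 called 1084 genes. The edgeR count was 290 to 629 when 1 of the 6 batches CT02-2, CT10-3, ZT06-1, ZT14-2, ZT18-2 and ZT22-3 was left out, and 0 for each of the other 22.

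The day-higher genes mostly had the opposite sign in LD, while the night-higher genes had both signs. Of the 15 genes that were most day-higher in DD, 13 had a negative light-minus-dark difference in LD, all but *CG5071* and *CG43902*. Of the 15 night-higher genes, 10 were also negative in LD and 5 were positive. The LD median over all genes tested in DD was 0.01, so a negative sign alone was common. *CG14417* had a log2 difference of 2.77 in DD and -3.42 in LD (edgeR adjusted p = 0.0648 for the difference), and *sog* had 3.997 in DD and -2.54 in LD (adjusted p = 0.0648). In LD, *CG14417* was high in some batches of a time point and low in others. In the dark phase it had 1.35 TP10K in ZT14-1, 3.29 TP10K in ZT18-1, 1.56 TP10K in ZT22-1 and 0.82 TP10K in ZT22-2. In the light phase it had 0.78 TP10K in ZT06-1, and the other 9 LD batches had 0.02 to 0.19 TP10K. Those 5 batches also had the highest X-linked shares of LD, 38.7%, 37.7%, 26.5%, 41.5% and 30.7%, against 19.5% to 23.0% in the rest. The median log2 difference of X-linked genes in LD was accordingly of the other sign, -0.38. ZT06-1, ZT18-1 and ZT22-2 carry the same date number, as does ZT10-1, which had an X-linked share of 19.7%. ZT18-1 and ZT22-2 were 1 library each, with 74 and 50 kept wells. RNA of EGFP was at 6.71, 3.64 and 3.21 TP10K in ZT06-1, ZT18-1 and ZT22-2, and at 12.6 to 35.1 TP10K in the other LD batches. The part of these differences was not tested. *per*, also X-linked, had a log2 difference of 0.49 in DD and -1.83 in LD (edgeR p = 0.00198 for the difference), and its LD value leaned on ZT14-1, with 14.3 TP10K against 0.46 to 2.93 TP10K in the other LD batches.

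For the clock genes outside X the sign was mostly shared. *tim* had a log2 difference of -0.59 in DD and -1.83 in LD (edgeR p = 0.0221 for the difference), and *Pdp1* had -0.52 in DD and -0.91 in LD (p = 0.148). *Clk* had -0.08 in DD and 1.06 in LD (p = 0.00188), and *cry* had 0.17 in DD and 1.01 in LD (p = 0.0303). No clock gene passed the adjustment for this difference. In LD, *Clk* was at 2.42 to 2.67 TP10K in the 4 batches of ZT02 and ZT06 and at 0.48 to 0.97 TP10K at ZT10. In the dark phase it was at 0.30 and 0.55 TP10K at ZT14, 0.25 and 1.05 TP10K at ZT18, and 1.45, 1.45 and 2.09 TP10K at ZT22, so that the ZT22 batches exceeded those of ZT10. The fitted LD peak of *Clk* was at 2.39 h, against 0.14 h in DD, and that of *cry* was at 4.56 h in LD, against 0.57 h in DD. These peak times come from separate fits, and their difference was not tested.

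**Figure D5:**
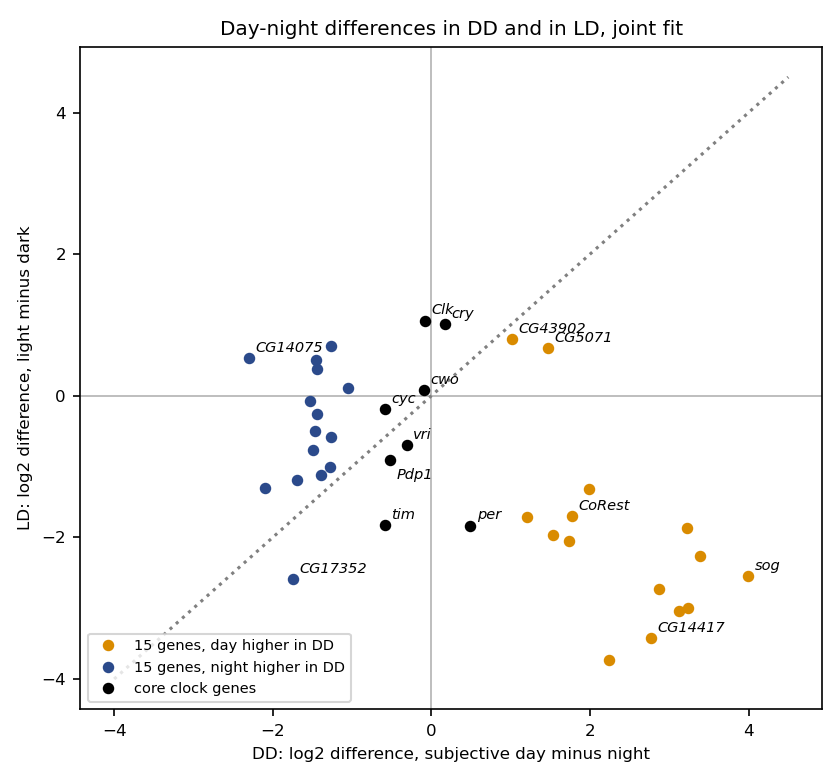
Log2 difference in DD, subjective day minus night (x axis), and in LD, light minus dark (y axis), from the joint fit, for the 15 day-higher genes (orange), the 15 night-higher genes (blue) and the 8 core clock genes (black); the dotted line marks equal values. 13 of the 15 orange points lie below 0 in LD, and *CG5071* and *CG43902* lie above it; of the 15 blue points, 10 lie below 0 in LD and 5 above it.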

How the data were processed

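EGFP-positive cells were sorted into plates, treated with TTX, DNQX and APV during dissection, and sequenced with CEL-Seq2. Per the labels and the methods of the study, the authors assigned reads to wells and UMIs with zUMIs and STAR on dm6 (bcl2fastq 2.20 for demultiplexing) and counted UMIs on annotated exons. The deposited tables hold these raw UMI counts per gene and well, without normalization. A UMI collapses PCR copies, so counts approximate molecules. DD library totals were 191993 to 3848092 UMIs. ERCC and EGFP rows (92) were left out. All libraries use the same 96 well barcodes by design, and 0 library pairs were identical.

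Kept wells were summed per batch. Day-night, 24 h rhythm and DD minus LD contrasts were fitted with edgeR 4.0.16 (filterByExpr, TMM, quasi-likelihood test, Benjamini-Hochberg, threshold 0.05) in R 4.3.3, with time point as a factor for the first and the third. Each SE was taken from the log2 difference and its F statistic. The procedure was run on simulated counts drawn independently for each gene and batch, in part with less spread than in the data. They held no shift common to many genes of a batch, so the simulation does not cover such shifts. Composition was tested in scipy 1.17.1. Doublets were limited by the upper bounds on genes and UMIs and by no caller. Gene positions are those of the Ensembl annotation of the dm6 assembly, on which all 38 named genes were found. Alternatives used DESeq2 1.42.0, limma 3.58.1, other normalization, filters, wells and units, and each batch left out in turn.

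The genes named are the 8 core clock genes, the 15 genes with the smallest p in each direction, and called members of the lists. Further list genes, *ben*, *CG13907* and *scrib* were named after their values were seen. The groups and lists were chosen with earlier results of these data known.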

Additional observations from a re-analysis of the deposited data

Results flagged for a closer look

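Of 96 groups of values over batches that were looked at for a sample far from the others, 7 had one by Dixon's criterion, and chance flags about 1 in 20. *vri* was at 0.272 TP10K in CT02-2, below the other day batches. *l(2)not* was at 0.106 TP10K in CT10-3, above the other day batches, and at 0.176 TP10K in CT14-2, above the other night batches. CT06-2, with 6 wells, had 0% of wells with *Pdf* and 66.7% of wells with *gl*, the lowest and the highest of the day. CT14-2 had the highest shares of the night for *ITP*, with 5.80% of wells, and for *Trissin*, with 10.9% of wells.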

How the results depend on the processing

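The day-night count of 2 genes was 2 with 1000 genes as the only limit on wells and without the mitochondrial genome, and 3 with genes per well as a covariate. It was 1 without TMM, 1 without batches under 50 wells and 1 with wells weighted the same, 0 with 2 groups, 104 without a filter on low counts, 212 with DESeq2 and 496 with each library as the unit, where libraries of one batch are not separate samples. The rhythm count of 2 genes was 0 without TMM, 0 with 1000 genes as the only limit and 0 without the mitochondrial genome, 1 without a filter and 25 with DESeq2. The DD minus LD count of 0 genes was 191 without a filter and 1084 with DESeq2. Leaving out each batch gave 0 to 40 genes for the day-night contrast, 0 to 2 for the rhythm and 0 to 629 for DD minus LD. The 40 came without CT10-3, 6 without CT02-2 and 4 without CT14-1, and 0 without CT06-1, CT14-2, CT18-1, CT18-2, CT22-1 or CT22-2. The causes were not tested.

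With the date number as a replicate block, edgeR called 0 genes for the day-night contrast (454 at an unadjusted p under 0.05) and 0 for the rhythm. Deviations from the time point means had a correlation over 0.1 in 3 of 4 pairs of batches with the same number (0.41, 0.18 and 0.15, and -0.09 in the fourth), against 15 of 77 other pairs. At a time point with 2 batches the deviations mirror each other, so these counts are not independent. The other pairs CT02-1 with CT14-1 (0.41) and CT18-2 with CT22-2 (0.18) thus repeat values of pairs with the same number. The labels do not say what the number marks, so whether it pairs the batches was not settled, and the fit without the block was kept as the main one. Under the block, differences of the opposite sign were -0.065 for *per*, 0.18 for *Clk* and 0.036 for *cwo*. *Clk* also changed sign with 1000 genes as the only limit (0.22) and with libraries as the unit (0.0098), and *cwo* with 1000 genes as the only limit (0.0082). Leaving out each batch gave -0.15 to 0.059 for *Clk* and -0.17 to 0.020 for *cwo*, positive for *Clk* without CT14-1 or CT22-2 (0.014) and for *cwo* without CT22-1.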
